A study of Homo sapiens with 4 samples.

Results

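The 7 genes that set and reset the phosphorylation of the translation factor eIF2 alpha were examined in the human natural killer cell line NK-92 after knockdown of the RNA-editing enzyme ADAR1. They are listed by symbol from their known roles, with earlier results of these data known, and comprise the eIF2 alpha kinase genes EIF2AK1, EIF2AK2, EIF2AK3 and EIF2AK4, the substrate gene EIF2S1, and the phosphatase subunit genes PPP1R15A and PPP1R15B. All 7 were found among the 20323 deposited genes, and all 7 passed the filter on low counts that left 11810 genes for testing. NK-92 is an established line grown from a natural killer cell lymphoma and cultured here with 100 IU/ml interleukin-2. Cells were transduced with a lentivirus carrying a scrambled hairpin (NK scramble, 2 libraries) or a hairpin against ADAR1 (NK shADAR1, 2 libraries), so that both groups had passed through viral transduction. The labels name the knockdown libraries shADAR1-1 and shADAR1-2 and were read as replicates, since the design text states independent biological replicates of each group. The study gives the same names to a pair of hairpins and names cells of only the latter hairpin as those sequenced, so that on its account both knockdown libraries carry that hairpin, although the labels do not say so.

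eIF2 carries the initiator methionyl-tRNA to the ribosome, and phosphorylation of its alpha subunit slows general translation while allowing the transcription factor ATF4 to be made. Each kinase answers to its own signal: HRI (EIF2AK1) to heme shortage and mitochondrial stress, PKR (EIF2AK2) to double-stranded RNA, PERK (EIF2AK3) to unfolded protein in the endoplasmic reticulum, and GCN2 (EIF2AK4) to uncharged tRNA. GADD34 (PPP1R15A) and CReP (PPP1R15B) bring protein phosphatase 1 to eIF2 alpha and remove the phosphate. PKR is itself induced by interferon, and ADAR1 is known for editing the endogenous double-stranded RNA that can otherwise activate it. The libraries measured RNA and therefore neither kinase activity nor the phosphorylation of eIF2 alpha, and in bulk RNA fewer cells of a type and less RNA per cell cannot be told apart.

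Promoter sequences are shown for the 3 genes of the pathway that hold a motif of the regulators named above. The RefSeq promoter windows of GRCh38.p14, from 250 bases before to 50 bases after a transcript start, were searched on both strands for GAAA followed after any 2 bases by GAAA (core of the interferon-stimulated response element), for TGATGNAA with N any base (C/EBP-ATF response element) and for TGACGTCA (cAMP response element). No one of these lies within another, though they can overlap in part. These letters occurred in 1255, 1270 and 649 of all 35116 windows, or 3.57%, 3.62% and 1.85%. Of the 7 genes, 6 had a window and EIF2AK1 did not. Capitals mark the motif, which begins 6 bases before the start of EIF2AK2 and runs across it, begins 58 bases before the start of PPP1R15A, and begins 227 bases before that of PPP1R15B.
EIF2AK2, chr2:37156967-37156996, minus strand: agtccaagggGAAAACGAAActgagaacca
PPP1R15A, chr19:48872352-48872381, plus strand: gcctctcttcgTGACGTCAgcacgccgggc
PPP1R15B, chr1:204412026-204412055, minus strand: cccgccccggcTGATGCAAcctcacgctgc

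Matching windows of genes from related lists are shown for comparison: OAS3 and IFIH1 are interferon-induced sensors of double-stranded RNA, and CEBPG is a partner of ATF4. The interferon motif was present in 5 of the 9 interferon-induced RNA-binding genes with a window (OAS3, IFIH1, IFIT1, IFIT3 and IFIT5). The C/EBP-ATF motif was present in 5 of the 17 genes of the ATF4 arm with a window (ATF3, CEBPG, ASNS, CHAC1 and SLC3A2). These counts are of genes with a motif in any of their windows, 12 windows for the 9 genes and 29 for the 17. The percentages over all windows are per window and so not directly comparable. In other lists, the interferon motif also occurred in ATF5, EIF2A and SMARCB1, and the C/EBP-ATF motif in IFIT3. The cAMP response element, shown above for PPP1R15A, occurred in DUS2 and HSP90AB1 of the kinase regulators and in 0 of the 17 genes of the ATF4 arm. A match of letters is a description of the window and does not show that a factor bound there.
OAS3, chr12:112938452-112938481, plus strand: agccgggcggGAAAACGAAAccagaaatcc
IFIH1, chr2:162318686-162318715, minus strand: gaagagaatcGAAACAGAAAccaaagtcag
CEBPG, chr19:33374060-33374089, plus strand: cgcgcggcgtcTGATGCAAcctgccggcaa

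Total estimated counts per library lay between 37881704 and 39960491. The Pearson correlation of log2 CPM across genes, which are not independent replicates, was 0.981 within NK scramble, 0.981 within NK shADAR1 and 0.981 to 0.989 between the groups, so replicates were no closer than libraries of different groups. All 13 NK cell markers exceeded 7 FPKM in every library, with a summed level of 3490 to 3981 FPKM. Of 6 T cell markers, TRAC alone exceeded 1 FPKM in every library (104 to 139 FPKM), and CD8A was listed at 0 throughout. B cell markers summed to 2.98 to 7.72 FPKM, myeloid markers to 0.418 to 0.690 FPKM and epithelial markers to at most 0.216 FPKM.

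The targeted gene ADAR was measured at 655 and 682 CPM (counts scaled to a common library size after TMM normalization) in NK scramble and at 575 and 482 CPM in NK shADAR1, the order of libraries used throughout. Both knockdown libraries lay below both controls, by 0.34 ± 0.20 on the log2 scale (standard error, n = 2 and 2). This difference did not pass the test (edgeR quasi-likelihood, unadjusted p = 0.127, adjusted p = 1.00). NK shADAR1 replicate 2 was the lower library of the pair, and the log2 fold change was -0.22 without it and -0.47 without NK shADAR1 replicate 1.

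None of the 7 genes was called differentially expressed between NK shADAR1 and NK scramble. A call required a Benjamini-Hochberg adjusted p under 0.05 over all tested genes and a fold change of at least 1.5 in edgeR, and 0 of 11810 genes met it (0%). At an unadjusted p under 0.05, edgeR held 293 genes (2.48%, with 0.779% lower and 1.7% higher in NK shADAR1) and 0 of the 7. DESeq2 held 289 of the 15605 genes it tested and limma on FPKM 238 of 10523, each with 1 of the 7, EIF2AK2. Neither of those tools called a gene after adjustment. In CPM, 3 of the 7 genes (EIF2AK2, EIF2S1 and PPP1R15B) were lower in both knockdown libraries than in both controls, against 12.6% of all tested genes, and 0 were higher in both, against 13.3%. The median log2 fold change was -0.12 over the 7 genes and 0.00003 over all tested genes.

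**Figure D1:**
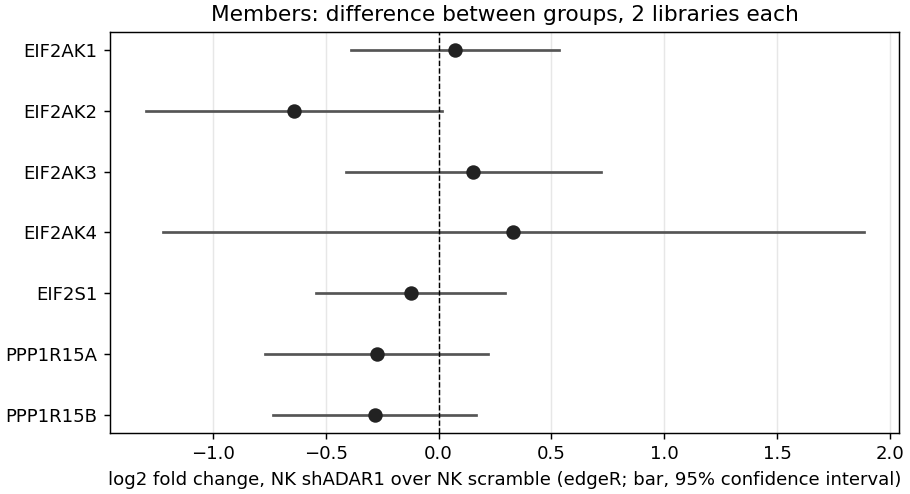
Log2 fold change of the 7 genes, NK shADAR1 over NK scramble, from edgeR with 2 libraries per group. Points are estimates and horizontal bars 95% confidence intervals; every interval includes 0, and that of EIF2AK2, from -1.30 to 0.014, has the lowest estimate at -0.64.

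Across the pathway, RNA for the substrate was the most abundant and RNA for GCN2 nearly absent. Levels are given as deposited FPKM, which corrects for transcript length, as the mean ± SD over the 4 libraries. EIF2S1 stood at 49.4 ± 6.44 FPKM, above all the others in each library and at the 83.8th percentile of tested genes. EIF2AK1 (32.5 ± 4.89 FPKM) and PPP1R15B (29.3 ± 4.09 FPKM) followed with ranges that overlapped. PPP1R15A (21.1 ± 3.48 FPKM), EIF2AK3 (18.0 ± 4.51 FPKM) and EIF2AK2 (14.4 ± 5.09 FPKM) came next, each overlapping its neighbour, although the range of PPP1R15B did not overlap that of PPP1R15A. EIF2AK4 was at 0.388 ± 0.142 FPKM, the 9.7th percentile. The ranges of PPP1R15A, EIF2AK3 and EIF2AK2 therefore did not separate neighbours, but these ranges pool both groups. Within each library, PPP1R15A exceeded EIF2AK2. EIF2AK2 lay above EIF2AK3 in both NK scramble libraries, narrowly in replicate 2 (19.03 against 18.91 FPKM). It lay below EIF2AK3 in both NK shADAR1 libraries, and this change of order was not tested.

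**Figure D2:**
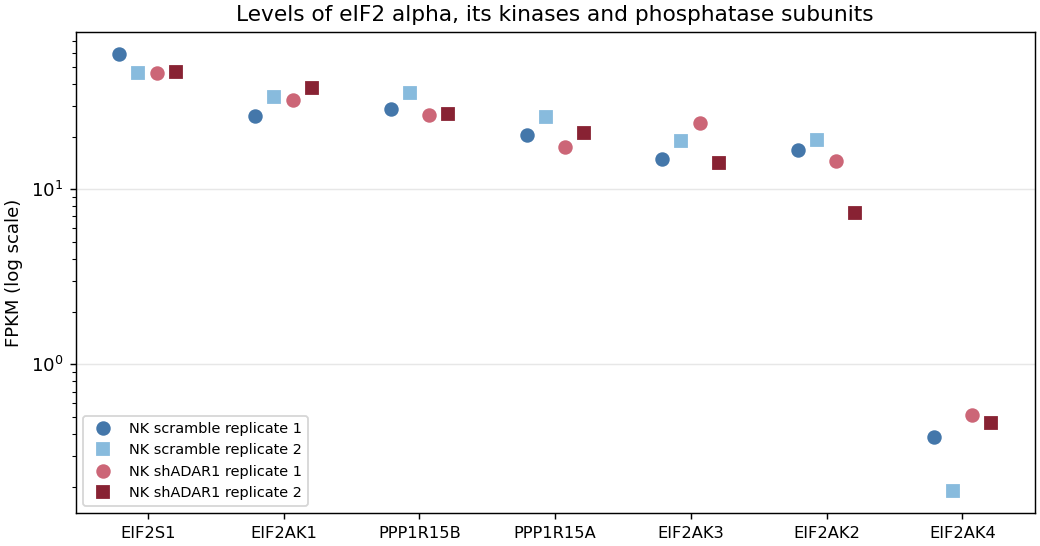
Deposited FPKM (log scale) of the 7 genes in each of the 4 libraries, ordered by mean level, with the NK scramble libraries in blue and the NK shADAR1 libraries in red. EIF2S1 lies highest at 45.9 to 59.1 FPKM, EIF2AK4 lowest at 0.189 to 0.515 FPKM, and the lowest of the 4 EIF2AK2 points is NK shADAR1 replicate 2 at 7.31 FPKM.

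EIF2AK2, the gene of the double-stranded RNA sensor PKR (ENSG00000055332, chr2:37099210-37157065, minus strand, GRCh38), showed the largest difference of the well-expressed members. It was measured at 123 and 149 CPM in NK scramble and at 116 and 58.3 CPM in NK shADAR1, from 4898, 5861, 4564 and 2176 estimated counts. Both knockdown libraries lay below both controls, but replicate 1 was close to the lower control at 0.854 of the scramble mean, whereas replicate 2 stood apart at 0.429 of it. The log2 fold change was -0.64 ± 0.30 (standard error), with a 95% confidence interval from -1.30 to 0.014 (edgeR, unadjusted p = 0.0543, adjusted p = 1.00). The estimate rested largely on NK shADAR1 replicate 2: it was -0.23 without that library and -1.22 without NK shADAR1 replicate 1. Leaving out a scramble library gave -0.78 (without replicate 1) or -0.50 (without replicate 2). Over all alternative settings the adjusted p of EIF2AK2 ran from 0.321 to 1.00.

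NK shADAR1 replicate 2 held EIF2AK2 at 0.502 of the next lowest library. Among all tested genes, 21.1% had their lowest level in this library, and 1.6% lay at or below 0.6 of the next lowest, a limit chosen after the values were seen. Among the 5 genes with the profile most like that of EIF2AK2 were PLSCR1, TRIM22, PARP9 and IFI35, with a root mean square distance of 0.047, 0.052, 0.10 and 0.14 on the log2 scale over the 4 libraries, after each gene was centred on its own mean. These 4 are known as interferon-induced genes. PLSCR1 was at 84.5 and 97.7 CPM in NK scramble and at 75.2 and 40.7 CPM in NK shADAR1, and TRIM22 at 25.6 and 28.4 against 23.9 and 11.5 CPM. Of 8490 genes with at least 10 CPM on average, 8 lay within a distance of 0.2 of EIF2AK2. These distances describe 4 libraries and carry no test.

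**Figure D3:**
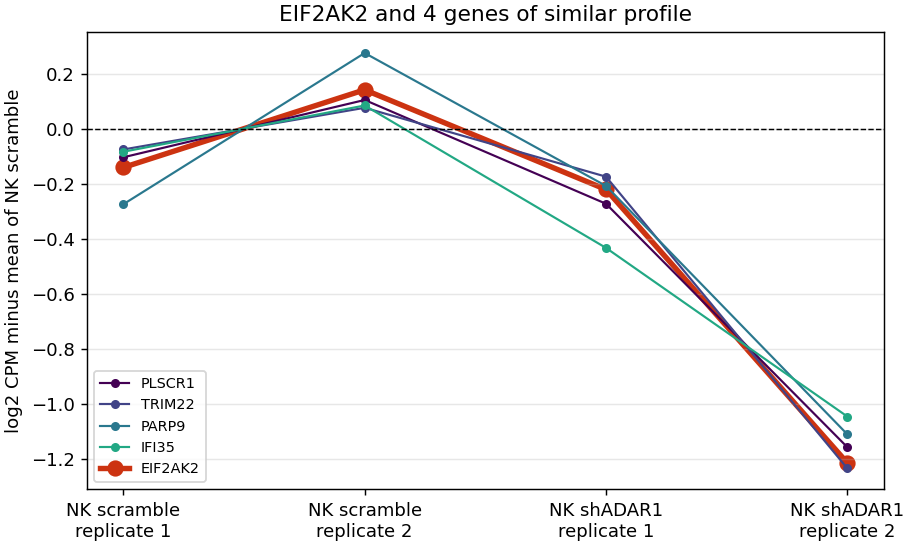
Log2 CPM of EIF2AK2 (thick red line) and of 4 of the 5 genes with the closest profile, each minus its mean over the NK scramble libraries; the x axis gives the 4 libraries and lines join the values of 1 gene. EIF2AK2 lies at -0.22 in NK shADAR1 replicate 1 and at -1.21 in NK shADAR1 replicate 2, and the 4 other genes shown also have their lowest value in NK shADAR1 replicate 2.

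EIF2AK1, the gene of the heme-regulated kinase HRI (ENSG00000086232, chr7:6022244-6059230, minus strand), was the most abundant kinase RNA in FPKM in all 4 libraries, although EIF2AK2 exceeded it in CPM in both NK scramble libraries. EIF2AK1 was measured at 113 and 144 CPM in NK scramble and at 125 and 145 CPM in NK shADAR1, and the groups overlapped. The log2 fold change was 0.07 ± 0.21, with a 95% confidence interval from -0.39 to 0.53 (edgeR, unadjusted p = 0.736). Its sign depended on single libraries, as the value was -0.091 without NK scramble replicate 1 and -0.044 without NK shADAR1 replicate 2. The gene shares 1591 bases with AIMP2 and 5011 with ANKRD61 on the opposite strand, and reads there cannot be assigned where strand is not stated. AIMP2, part of the aminoacyl-tRNA synthetase complex, was at 26.3 to 39.0 CPM, and ANKRD61 at 0.268 to 0.534 CPM. The same limit applies to other members. Opposite-strand genes overlap EIF2AK3 (AC104134.1, 18870 bases) and PPP1R15B (AL606489.1, 8405 bases, its whole span). Shorter overlaps exist for EIF2AK2 (AC007899.1, 775 bases, and GPATCH11, 35 bases), EIF2AK4 (H3F3AP1, 334 bases) and EIF2S1 (ATP6V1D, 269 bases).

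EIF2AK3, the gene of the endoplasmic reticulum kinase PERK (ENSG00000172071, chr2:88556741-88627576, minus strand), was measured at 59.3 and 76.1 CPM in NK scramble and at 92.5 and 58.1 CPM in NK shADAR1. Its highest and its lowest value both came from the knockdown group. The log2 fold change was 0.15 ± 0.25, with a 95% confidence interval from -0.41 to 0.72 (edgeR, unadjusted p = 0.560). It became -0.22 without NK shADAR1 replicate 1 and -0.020 without NK scramble replicate 1. Replicate 1 was the higher knockdown library for both EIF2AK3 and EIF2AK2, and it exceeded both controls for EIF2AK3 but not for EIF2AK2.

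EIF2AK4, the gene of the amino acid-sensing kinase GCN2 (ENSG00000128829, chr15:39934146-40035591, plus strand), was barely detected. Its estimated counts were 17 and 6 for NK scramble and 15 and 13 for NK shADAR1, or 0.153 to 0.426 CPM. At this depth the log2 fold change of 0.33 ± 0.70 had a 95% confidence interval from -1.22 to 1.88 (edgeR, unadjusted p = 0.647), so neither a large increase nor a large decrease was excluded by the interval. Without NK scramble replicate 2, the library with 6 counts, the value was -0.23, and over the libraries left out in turn it reached 1.24.

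The summed level of the 4 kinases was 58.2 and 72.0 FPKM in NK scramble and 71.3 and 59.7 FPKM in NK shADAR1. The groups overlapped in this sum, while both knockdown libraries differed in its makeup from both controls, each in its own way. EIF2AK2 provided 28.9% and 26.4% of kinase RNA in NK scramble, 20.3% in NK shADAR1 replicate 1 and 12.2% in NK shADAR1 replicate 2. EIF2AK1 provided 44.8% and 47.0% in NK scramble and 45.4% in NK shADAR1 replicate 1, against 63.4% in NK shADAR1 replicate 2. EIF2AK3 provided 25.6% and 26.3% in NK scramble, 33.6% in NK shADAR1 replicate 1 and 23.5% in NK shADAR1 replicate 2. EIF2AK4 provided at most 0.771% in any library. These shares are descriptions without a test, and a lower share of 1 kinase raises those of the others by arithmetic alone. They are shares of FPKM, so the transcript length assumed in each library also enters them. EIF2AK1 was at 144 CPM in NK scramble replicate 2 and 145 CPM in NK shADAR1 replicate 2, but at 33.8 and 37.9 FPKM.

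EIF2S1, which encodes eIF2 alpha itself (ENSG00000134001, chr14:67359997-67386516, plus strand), was the steadiest of the 7 genes in CPM. It was measured at 135 and 143 CPM in NK scramble and at 126 and 128 CPM in NK shADAR1, so the groups did not overlap, by a narrow margin. The log2 fold change was -0.12 ± 0.19, with a 95% confidence interval from -0.54 to 0.29 (edgeR, unadjusted p = 0.523), and stayed between -0.17 and -0.090 with each library left out in turn. In FPKM the groups overlapped, at 59.1 and 46.3 FPKM against 45.9 and 46.4 FPKM.

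PPP1R15A, the gene of the stress-inducible phosphatase subunit GADD34 (ENSG00000087074, chr19:48872392-48876057, plus strand), was measured at 47.4 and 61.2 CPM in NK scramble and at 39.1 and 50.7 CPM in NK shADAR1. The groups overlapped, and replicate 2 was the higher library in both. The log2 fold change was -0.27 ± 0.22, with a 95% confidence interval from -0.77 to 0.22 (edgeR, unadjusted p = 0.244). It was -0.48 without NK shADAR1 replicate 2 and -0.085 without NK scramble replicate 2. Among the 5 genes with the most similar profile were RHOH, C4orf46, PELI1 and RAB21, at distances of 0.0076 to 0.017 on the log2 scale. This likeness was not distinctive, since 2579 of 8490 genes lay within 0.2 of PPP1R15A.

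PPP1R15B, the gene of the constitutive subunit CReP (ENSG00000158615, chr1:204403387-204411791, minus strand), was measured at 146 and 185 CPM in NK scramble and at 130 and 142 CPM in NK shADAR1. Both knockdown libraries lay below both controls, with the lower control only slightly above them. The log2 fold change was -0.28 ± 0.20, with a 95% confidence interval from -0.73 to 0.17 (edgeR, unadjusted p = 0.192), and ranged from -0.44 to -0.11 with each library left out in turn. In each library the constitutive subunit was more abundant than the inducible one, at 26.5 to 35.3 FPKM against 17.3 to 25.8 FPKM.

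Dividing a gene's estimated count by its FPKM and by the library total gives the transcript length that the authors' estimates assumed, which moves when reads are assigned to shorter or longer isoforms. For PPP1R15A this length was 2336 to 2345 bases, beside an annotated transcript of 2378 bases in GENCODE 29, and for PPP1R15B 5098 to 5154 beside 5227 bases. For both phosphatase subunits and for EIF2AK3 (3959 to 4013 bases) the length varied between libraries by a factor of at most 1.01. EIF2S1 varied most of the 6 well-expressed genes, from 2308 bases in NK scramble replicate 1 to 3028 in NK scramble replicate 2 (2858 and 2678 in NK shADAR1), a factor of 1.31 that exceeded that of 94.6% of 9047 genes with at least 200 counts in each library. Its annotated coding transcripts include one of 2390 and one of 4485 bases. EIF2AK1 was at 4393 and 4172 bases in NK scramble and shorter in both NK shADAR1 libraries (3999 and 3717). Its factor of 1.18 exceeded that of 84.7% of the same genes, whose median was 1.05 and 90th percentile 1.23. EIF2AK2 lay between 7354 and 8328 bases, between its transcripts of 4343 and 10042 bases, and EIF2AK4 at 733 to 1111 bases, far below its full-length transcript of 5499 bases. The annotation of EIF2AK4 also holds coding isoforms of 638 and 687 bases. The lengths carry no test, and a fold change in CPM or in FPKM of EIF2S1, EIF2AK1 and EIF2AK2 differs with them. For EIF2AK1 it was 0.07 in CPM and 0.24 in FPKM (limma, pseudocount 0.1). For EIF2AK2 it was -0.64 in CPM and -0.79 in FPKM, though the tools differ as well.

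**Figure D4:**
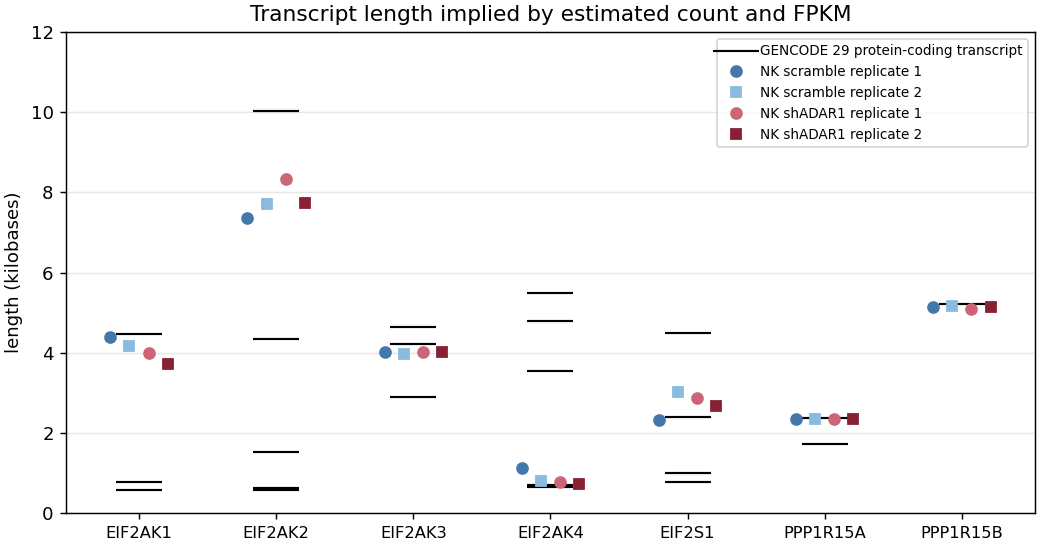
Transcript length in kilobases implied by estimated count and FPKM for the 7 genes, with 1 point per library (NK scramble in blue, NK shADAR1 in red) and black bars for GENCODE 29 protein-coding transcripts. Points coincide for EIF2AK3, PPP1R15A and PPP1R15B, spread for EIF2S1 from 2308 to 3028 bases, and lie near the shortest transcripts for EIF2AK4.

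None of the partners of these genes passed the test between the groups. Of 15 genes of the eIF2 complex, its exchange factor eIF2B and other initiation factors, 5 were higher and 10 lower in NK shADAR1, with a median log2 fold change of -0.079. Those farthest from 0 were EIF5B, which joins the ribosomal subunits (0.34), EIF2A (0.18), EIF2B3 (-0.15) and EIF1, which guards start codon choice (-0.34). Of 9 genes of protein phosphatase 1 and its scaffolds, 5 were higher and 4 lower (median 0.056), led by PPP1R12A (0.30) and NCK1 (0.28) and by PPP1R2 (-0.18) and PPP1CC (-0.17). PPP1R2 turned to 0.046 without NK scramble replicate 1, and PPP1R12A was 0.087 without NK scramble replicate 2 and 0.55 without NK scramble replicate 1. Of 17 regulators of the kinases, 5 were higher and 12 lower (median -0.026), among them OMA1, a mitochondrial protease upstream of HRI (0.27), and STRBP (0.26). The chaperones HSPA8 (-0.54) and HSPA5 (-0.46), the latter a restrainer of PERK, lay lowest. Single libraries decided the size of several of these values. Without NK shADAR1 replicate 1, HSPA8 was -0.30, HSPA5 -0.24, STRBP 0.084, PPP1CC -0.092, EIF1 -0.20, EIF2B3 -0.026 and EIF2A 0.27. Without NK shADAR1 replicate 2, HSPA8 was -0.84, HSPA5 -0.72, STRBP 0.41, PPP1CC -0.26, EIF1 -0.51, EIF2B3 -0.30, EIF2A 0.080 and OMA1 0.18. HSPA8 was -0.34 without NK scramble replicate 1, and EIF2B3 was -0.073 without NK scramble replicate 1 and -0.24 without NK scramble replicate 2. After adjustment 0 of the genes in these lists passed in edgeR, DESeq2 or limma. At an unadjusted p under 0.05 edgeR held 0, limma 0 and DESeq2 2, both in the list of kinase regulators (289 of 15605 over all genes in DESeq2). The medians of the eIF2 list and of the kinase regulators were near 0 and turned positive with a single library left out, reaching 0.0019 and 0.016, both without NK shADAR1 replicate 1.

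Genes of the ATF4 arm, a list of ATF4 and genes known as its targets or partners, lay lower in NK shADAR1. Their RNA is not a measure of eIF2 alpha phosphorylation. The list was written with earlier results of these data known, which limits the comparison with the background. Of 20 genes, 16 passed the filter, 15 of them with a negative log2 fold change and 1 with a positive one, with a median of -0.52. Both knockdown libraries lay below both controls for 11 of 16 genes (background 12.6%), and 7 of 16 had an unadjusted p under 0.05 in edgeR in the lower direction (background 0.779%), but 0 passed after adjustment in edgeR, DESeq2 or limma. DESeq2 held 7 and limma 4 at an unadjusted p under 0.05 (over all genes 289 of 15605 in DESeq2 and 238 of 10523 in limma). Relative to the scramble mean, the median gene stood at 0.27 and -0.27 in the scramble replicates and at -0.51 and -0.45 in NK shADAR1 on the log2 scale, so both knockdown libraries were low and the controls were themselves apart. Without NK scramble replicate 1 the median was -0.24, and over all libraries left out in turn it ran down to -0.71.

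ATF4 itself, chosen after its values were seen, was measured at 546 and 445 CPM in NK scramble and at 368 and 424 CPM in NK shADAR1, a log2 fold change of -0.32 ± 0.21. ATF3, a stress-induced transcription factor, was at 13.5 and 9.82 CPM in NK scramble and at 2.64 and 7.52 CPM in NK shADAR1 (log2 fold change -1.20, unadjusted p = 0.0169, edgeR). It was -2.14 without NK shADAR1 replicate 2 and -0.63 without NK shADAR1 replicate 1. CEBPB was at 50.9 and 18.0 CPM against 22.4 and 10.7 CPM, with overlapping groups and a log2 fold change of -1.06 that was -0.13 without NK scramble replicate 1 and -1.63 without NK scramble replicate 2. The 1 gene with a positive value, VLDLR, was at 0.127 to 0.331 CPM, close to the floor of detection.

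The interferon-induced RNA-binding genes also lay lower, but unevenly between the knockdown libraries. They are a list of RNA sensors and antiviral effectors, not all of which bind double-stranded RNA as PKR does. This list too was written with earlier results of these data known. Of 16 genes, ADAR among them, 15 had a negative and 1 a positive log2 fold change, with a median of -0.52. ADAR is the target of the hairpin, so its lower level was intended by the design. It counts among the 15, among the 8 genes given next and among the 13 below for which NK shADAR1 replicate 2 was the lowest library. Both knockdown libraries lay below both controls for 8 of 16 genes (background 12.6%), and 4 had an unadjusted p under 0.05 in edgeR in the lower direction (background 0.779%). In either direction, DESeq2 held 5 (289 of 15605 over all genes) and limma 5 (238 of 10523), while 0 passed after adjustment in any of the 3 tools. The median gene stood at -0.15 in NK shADAR1 replicate 1 and at -0.94 in NK shADAR1 replicate 2 relative to the scramble mean. NK shADAR1 replicate 2 was the lowest library for 13 of 16 genes (21.1% of all tested genes). It lay at or below 0.6 of the next lowest library for 9 of 16 (1.6% of all tested genes), as for EIF2AK2. Both counts include OAS3, which ranged from 0 to 0.301 CPM, close to the floor of detection. The list median was -0.15 without NK shADAR1 replicate 2 and -0.94 without NK shADAR1 replicate 1.

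IFIT1, which binds foreign RNA ends, was measured at 30.4 and 31.9 CPM in NK scramble and at 18.5 and 6.91 CPM in NK shADAR1, a log2 fold change of -1.29 ± 0.37 (edgeR, unadjusted p = 0.00541). OAS1, a synthetase switched on by double-stranded RNA, was at 85.6 and 91.4 CPM against 53.5 and 19.9 CPM, a log2 fold change of -1.27 ± 0.37 (edgeR, unadjusted p = 0.00597). Unlike EIF2AK2, both stood well below the controls in NK shADAR1 replicate 1 as well, and without NK shADAR1 replicate 2 they were still at -0.76 and -0.73.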

How the data were processed

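RNA of 4 NK-92 libraries was sequenced on an Illumina system after oligo(dT) selection. The authors deposited estimated counts per gene, not normalized and in 12.4% of values not whole, and FPKM, scaled by transcript length and library total. The submitters' processing notes name fastp 0.18.0. The aligner, counting program, strand setting and build are not given in the sources used here, and neither labels nor headers name a batch. Positions are from GENCODE 29 on GRCh38, matched by Ensembl identifier. The 7 genes and 5 gene lists were chosen with earlier results of these data known.

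Rounded counts passed through filterByExpr (minimum count 10) and TMM scaling, and group differences were assessed by quasi-likelihood F-tests without covariates (edgeR 4.0.16, R 4.3.3). The procedure was tested on simulated data. Adjusted p-values cover all 11810 genes, and single-gene values are from edgeR unless another tool is named. A standard error is the log2 fold change divided by the square root of F. With 2 libraries per group, an exact permutation test cannot go below p = 0.333.

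Named genes were the 7, ADAR, the 2 highest and 2 lowest of each list and the 5 nearest profiles. Where a list had a single gene with a positive value, no other was named above 0. Some genes this rule selects are not reported here. Alternatives were DESeq2 1.42.0, limma 3.58.1 on log2 FPKM (pseudocounts 0.1 and 1, FPKM filter 0.5 or none), other scalings and filters, the replicate block, and each library left out.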

Additional observations from a re-analysis of the deposited data

How the results depend on the processing

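No setting called any of the 7 genes. Counts of called genes over all genes were 0 with all libraries, 13 with the replicate block, 213 without adjustment, and 1 to 47 with each library left out. The ATF4 arm gave 5 calls without adjustment and 0 to 1 with each library left out, and the interferon-induced RNA-binding genes gave 3 with the replicate block, 3 without adjustment and 0 to 4 with each library left out. With each library left out in turn, EIF2AK1 ran from -0.091 to 0.25, EIF2AK3 from -0.22 to 0.45, EIF2AK4 from -0.23 to 1.24, and PPP1R2 from -0.39 to 0.046, each from 3 libraries; the cause was not tested. IFIT1 and OAS1 passed at an adjusted p of 0.0425 with the replicate block (edgeR). They also passed without NK scramble replicate 1 or NK shADAR1 replicate 1, and CEBPB without NK scramble replicate 2. Each fit with a library left out has 1 library in a group, which is assumed to vary like the other group. For CEBPB the omission keeps NK scramble replicate 1 (50.9 CPM) as the only control. It removes NK scramble replicate 2 (18.0 CPM), which lay between the knockdown libraries (22.4 and 10.7 CPM). The log2 fold change of CEBPB was then -1.63, against -0.13 without NK scramble replicate 1.

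The labels number the replicates 1 and 2 in both groups but do not say that a number marks a shared culture or day, and with 2 pairs the numbers were taken as names only. Deviations of the libraries numbered 1 correlated at r = 0.308 across 11810 genes. The replicate block moved the genes with an unadjusted p under 0.05 from 293 to 681 and the adjusted p of EIF2AK2 to 0.438 (edgeR), and changed the call of none of the 7 genes. No filter gave 431 such genes, and leaving out 1 library gave 204 to 692. For EIF2AK2 the unadjusted p was 0.0066 with the replicate block and 0.0176 without the count filter, against 0.0543 in the main fit (edgeR). In limma on FPKM (pseudocount 0.1) its unadjusted p was 0.0299 with the FPKM filter and 0.0747 without it. EIF2AK4 was not testable under the FPKM filter or a mean of at least 50 counts. Precision was limited by 2 libraries per group, with a biological coefficient of variation of 0.201.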
